A study of Bos taurus with 8 samples.

Results

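Granulosa cells of cows taken 22 h after the surge of luteinizing hormone (LH) were compared with granulosa cells taken 2 h before it. The comparison rests on 4 of the 8 2-colour arrays of the study, chosen by the label that names granulosa cells 22 h after the surge, and on all 14168 genes that were tested on them. On each array, RNA of 1 replicate of the 22 h group was hybridised together with RNA of 1 replicate of the pre-LH group. The other 4 arrays set cells taken 6 h after the surge against pre-LH cells in the same way.

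Both groups came from Holstein Friesian cows whose cycles had been synchronised with norgestomet implants, estradiol valerate and prostaglandin and whose ovaries had been stimulated with decreasing doses of ovine FSH. The 22 h cows received GnRH to induce the surge and were ovariectomised 24 h later, and their cells came from pre-ovulatory follicles. The pre-LH cows were ovariectomised 2 h after the implant was taken out, and their cells came from follicles of 6 to 8 mm, so follicle size and time cannot be told apart. The cells were scraped from follicles from which the oocyte and its cumulus had been aspirated. The labels describe mainly mural granulosa cells with some theca cells, detected by PCR for CYP17. The labels number the replicates 1 to 4 in each group but do not say how many cows a replicate pools. The 4 arrays of 22 h lay on 1 slide and those of 6 h on another, so slide and time cannot be told apart either. In such bulk RNA, fewer cells of a type and less RNA per cell cannot be told apart.

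Granulosa cells line the follicle, convert androgens of the neighbouring theca into estradiol and divide under FSH. The LH surge turns them towards ovulation: they make prostaglandins and a hyaluronan matrix, leave the cell cycle, lose aromatase and begin to change into luteal cells, which make progesterone from cholesterol. At 22 h the follicle is close to rupture.

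Between 78.1% and 82.2% of probes were above background on the arrays of 22 h. The log2 ratios of 22 h over pre-LH correlated between these arrays with r from 0.514 to 0.738 across tested probes; probes are not independent replicates. Replicates 1 and 2 carried the 22 h RNA in Cy5 and replicates 3 and 4 carried it in Cy3. A dye effect was called for 7577 of 38589 tested probes. Where replicates 1 and 2 stand apart from 3 and 4, dye and replicate cannot be told apart. Such splits are pointed out below for some genes, not for all that have them. Changes below are log2 ratios ± SE from limma (n = 4 arrays), array values are given in the order of replicates 1 to 4, and "rose" and "fell" are used where the adjusted p was under 0.05. The SE comes from the fit of all 8 arrays after a common dye effect is removed. It is therefore not the spread of the 4 values printed and can be well below it. Replicate 4 showed smaller changes than the other arrays. Over 725 genes that changed at least 2-fold and had a value on every array, the median size of the log2 ratio was 1.71, 1.49, 1.51 and 1.10 on replicates 1 to 4, and replicate 4 held the smallest of the 4 values in 473 genes. Without replicate 4 of 22 h the number of changed genes was 3331.

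At 22 h, 3621 of 14168 genes differed from the pre-LH level, which is 25.6% of those tested. Of these, 1863 rose (13.1%) and 1758 fell (12.4%). Most changes were small, with a median of 1.46-fold among genes that rose and 1.48-fold among those that fell. At least 2-fold changes were found for 728 genes (5.14%), 388 higher (2.74%) and 340 lower (2.4%), and 8-fold changes for 31 genes up and 5 down. The sign was the same on all 4 arrays for 3373 of the 3621 genes. Over all 14168 tested genes, 2619 were higher and 2445 lower on all 4 arrays. The calls were made from these same arrays, so the shared sign is no independent support for them. The count was 2047 without replicate 3 of 22 h and 1754 when the fit held only the 4 arrays of 22 h.

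Among genes above background and unsaturated in both channels of all 4 arrays, the steepest rise was that of PTGS2, the inducible cyclooxygenase that starts prostaglandin synthesis. Its ratios were 6.00, 6.58, 6.17 and 5.31 on the 4 arrays, a mean of 6.01 ± 0.16, adjusted p = 2.35e-06, and they did not approach 0 on any array. All 3 probes of PTGS2 rose, but by 0.49 to 6.01, so the size rests on the brightest probe, and the median over its probes was 3.90. NUDT11, a hydrolase of inositol pyrophosphates, stood at 5.67, 6.28, 5.35 and 4.35 (5.41 ± 0.24). Its near-identical paralog NUDT10 stood at 3.55, 4.31, 3.76 and 3.76 (3.84 ± 0.12), and the probes of such close copies may bind RNA of both. PTX3, a pentraxin that stabilises the matrix around the oocyte, stood at 4.98, 5.20, 4.81 and 5.12 (5.02 ± 0.10), with the narrowest spread of the 3 largest rises.

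VNN2, a pantetheinase, rose by 4.78 ± 0.069 with arrays at 4.87, 5.02, 4.74 and 4.48. RGS2, which shortens signals of G proteins, rose by 4.68 ± 0.17 with arrays at 4.67, 5.14, 4.74 and 4.18. GFRA1, a co-receptor of the growth factor GDNF, stood at 5.15, 5.39, 4.41 and 3.57 (4.63 ± 0.16). Its ratios split by dye orientation, and that on replicate 4 was the lowest by a clear margin. NT5E, which makes adenosine outside the cell, rose by 3.91 ± 0.096. SEMA3E, a guidance cue for axons and vessels, rose by 3.85 ± 0.11, and GALNT13, which starts mucin-type O-glycans, by 3.83 ± 0.089. HS3ST5, a sulfotransferase of heparan sulfate, rose by 4.26 ± 0.12 on the brighter of its 2 probes, while the other probe was at 0.031 and did not pass. OLFML2B, an olfactomedin-like protein, rose by 3.72 ± 0.12. In all 12 of these genes every array was above 3 on the log2 scale, and replicate 4 was the lowest array for 10 of them.

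On the same condition, the steepest fall was that of LRP8, which binds apolipoprotein E and reelin. Its ratios were -4.97, -5.15, -5.10 and -5.21 (-5.11 ± 0.17, adjusted p = 5.54e-06), with little spread between the arrays. CXCL14, a chemokine, stood at -4.18, -4.19, -4.30 and -3.34 (-4.00 ± 0.16), with replicate 4 apart from the other 3. INHBB, the beta B subunit of inhibin and activin, stood at -3.62, -3.99, -4.06 and -4.19 (-3.96 ± 0.21). ATP4B, known as a proton pump subunit of the stomach, fell with arrays at -3.04, -3.11, -3.23 and -3.29 (-3.17 ± 0.066). HPGD, which inactivates prostaglandins, stood at -4.52, -3.02, -3.06 and -1.95 (-3.13 ± 0.27), a wide spread, and its 5 probes all fell, with means of -0.42 to -3.13. CYP19A1, the aromatase, stood at -3.62, -3.16, -3.36 and -1.74 (-2.97 ± 0.29), and its 3 probes all fell, with means of -0.22 to -2.97, so the size rests on the brightest probe.

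TRIB2, a pseudokinase, fell with arrays at -2.98, -2.70, -3.13 and -3.10 (-2.98 ± 0.058). Of its 3 probes, at means from -2.98 to -0.16, 2 fell. STC1, a secreted glycoprotein, stood at -2.92 ± 0.13 and AS3MT, an arsenic methyltransferase, at -2.81 ± 0.094. OGN, a small leucine-rich proteoglycan, was lower on every array, at -3.91, -2.22, -2.77 and -2.05 (-2.74 ± 0.29). COLEC11, a collectin listed here as a theca marker, stood at -2.78, -2.60, -2.61 and -2.48 (-2.62 ± 0.049). CYP51A1, a demethylase of sterol synthesis, stood at -3.34, -2.63, -2.40 and -2.07 (-2.61 ± 0.14).

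**Figure D1:**
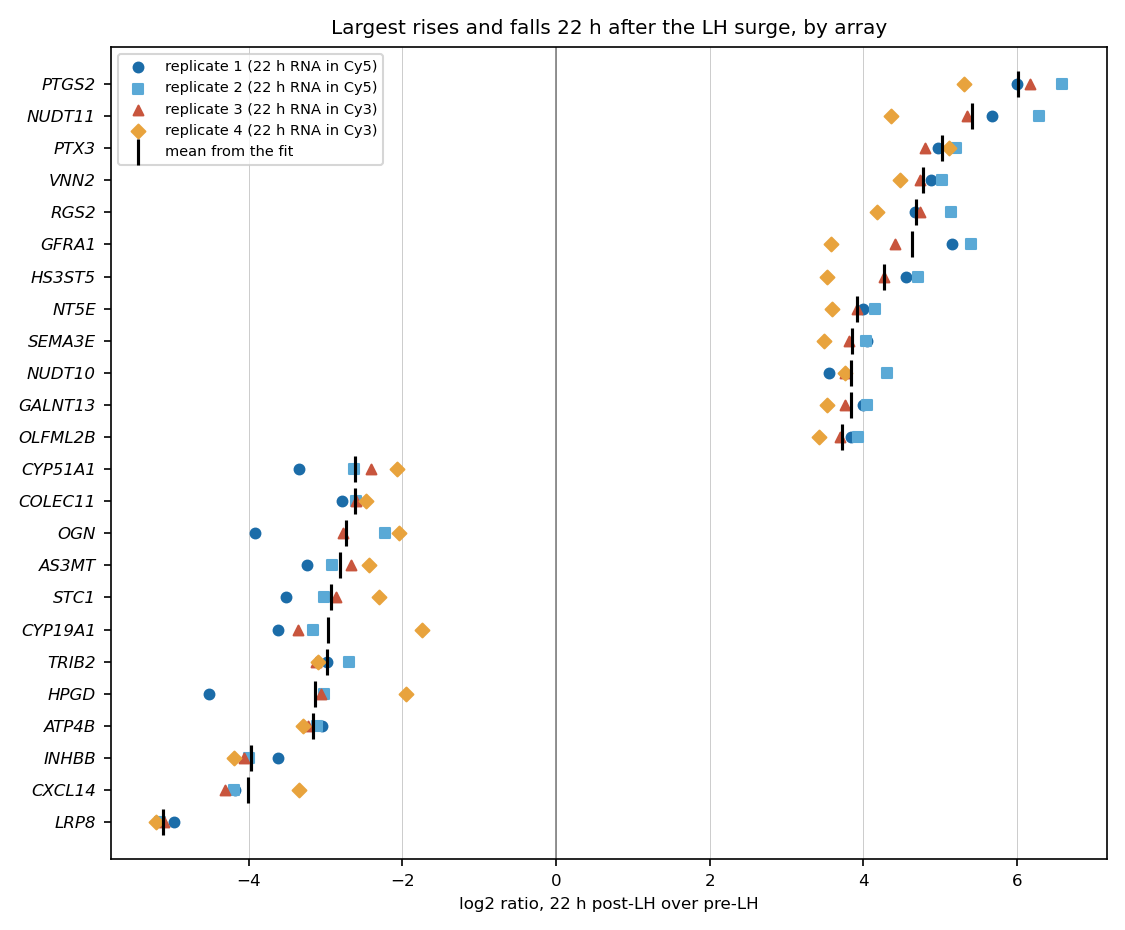
The 12 largest rises and the 12 largest falls among genes above background and not saturated in both channels of all 4 arrays; the x axis is the log2 ratio of 22 h over pre-LH, symbols are the 4 arrays and black ticks the means. PTGS2 lies between 5.31 and 6.58 and LRP8 between -5.21 and -4.97, and the diamonds of replicate 4 lie nearest 0 in most rows.

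For a few genes the size of the change is uncertain, because a group was not above background on any array or was saturated on all 4. There were 20 such genes among those that changed, and 1 of them was not above background in either group. The sizes given for dim genes are mean ratios that use the background signal of the dim group, not bounds. SCN3A, a sodium channel, was not above background before LH, and 3 of 4 arrays measured it at 22 h. Its log2 ratios were 2.31, 2.11, 1.70 and 0.39, a mean rise of 3.09-fold (adjusted p = 0.00407). TRIM55, a ubiquitin ligase known from muscle, had a mean rise of 2.26-fold (adjusted p = 0.00238), and CHGB, a secretory granule protein, of 1.87-fold (adjusted p = 0.000131). The largest mean fall among genes lost from view at 22 h was that of APOA5, an apolipoprotein, at 1.39-fold (adjusted p = 0.00321). Neither CHGB nor APOA5 passed with the background estimated from all spots. APOA5 also lost its call when the fit held only the 4 arrays of 22 h. The arrays split by dye orientation for TRIM55, at 1.81, 1.39, 0.81 and 0.69, and for CHGB, at 1.13, 1.29, 0.65 and 0.54.

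The 28 genes listed as mediators of ovulation or targets of the progesterone receptor held 15 that rose and 2 that fell, with a median of 0.44 against 0.0066 over all genes. This list and those below were chosen with earlier results of these data known, so their counts are no independent test. The counts of every list stand against 13.1% of all genes that rose and 12.4% that fell. PLAT, the tissue plasminogen activator, rose on every array, at 2.87, 2.58, 2.47 and 2.32 (2.56 ± 0.092). ADAMTS9 (2.36 ± 0.14) and ADAMTS1 (1.03 ± 0.10), metalloproteinases that cut versican, rose as well. PGR, the progesterone receptor, was lower than before LH, at -0.34, -0.23, -0.61 and -0.58 (-0.44 ± 0.056, adjusted p = 0.00188), split by dye orientation. The other member that fell was GCLC, the rate-limiting enzyme of glutathione synthesis (-0.59 ± 0.057). AREG, a ligand of the EGF receptor that relays the LH signal, was at 0.13 (adjusted p = 0.703) and VEGFA, a growth factor for vessels, at 0.037 (adjusted p = 0.746); neither passed.

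Prostaglandin genes moved in both directions: of 22, 4 rose (18.2%, against 13.1% of all genes) and 5 fell (22.7%, against 12.4%). PLA2G4A, the phospholipase that frees arachidonic acid for cyclooxygenase, stood at 3.53, 4.15, 3.76 and 2.96 (3.60 ± 0.14). PTGES, a prostaglandin E synthase, rose by 0.50 ± 0.081. On the side of removal, HPGD fell as above and SLCO2A1, the transporter that brings prostaglandins into the cell for breakdown, fell with arrays at -0.67, -0.97, -1.28 and -0.68 (-0.90 ± 0.12); 1 of its 2 probes passed. The other 4 members that changed lay between -0.46 and 0.44.

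Of 17 genes of the hyaluronan matrix, 5 rose and 1 fell. TNFAIP6, which links hyaluronan chains, stood at 5.46, 4.69, 3.43 and 5.28 (4.72 ± 0.39); 2 of its 4 spots at 22 h were saturated and entered at their measured value, so the size of the rise is uncertain. SDC4, a heparan sulfate proteoglycan, stood at 2.74, 2.26, 1.99 and 2.46 (2.36 ± 0.21). HAS2, the hyaluronan synthase of the expanding cumulus, stood at 1.24, 0.85, 0.25 and -0.016 (0.58 ± 0.099), near 0 on replicate 4, and was above background before LH on only 2 of 4 arrays. HAS2 did not pass without a dye effect in the fit or with the background estimated from all spots. UGDH, which makes a building block of hyaluronan, fell (-0.77 ± 0.17) on 1 of its 3 probes. UGDH did not pass without replicate 3 of 22 h.

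Among 39 proteases and their inhibitors, 11 rose and 4 fell. A2M, a broad protease inhibitor, stood at 2.07, 2.24, 2.91 and 2.89 (2.53 ± 0.20), and TIMP1, an inhibitor of metalloproteinases, at 2.72, 2.20, 2.26 and 1.92 (2.27 ± 0.098). TIMP3 (-0.54 ± 0.062) and SPINK5, an inhibitor of serine proteases (-0.57 ± 0.12), fell. The arrays of A2M and TIMP3 split by dye orientation, those of TIMP3 at -0.45, -0.31, -0.72 and -0.69. Of the falls only 1 was called without replicate 3 of 22 h, and SPINK5 was not among the calls.

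**Figure D2:**
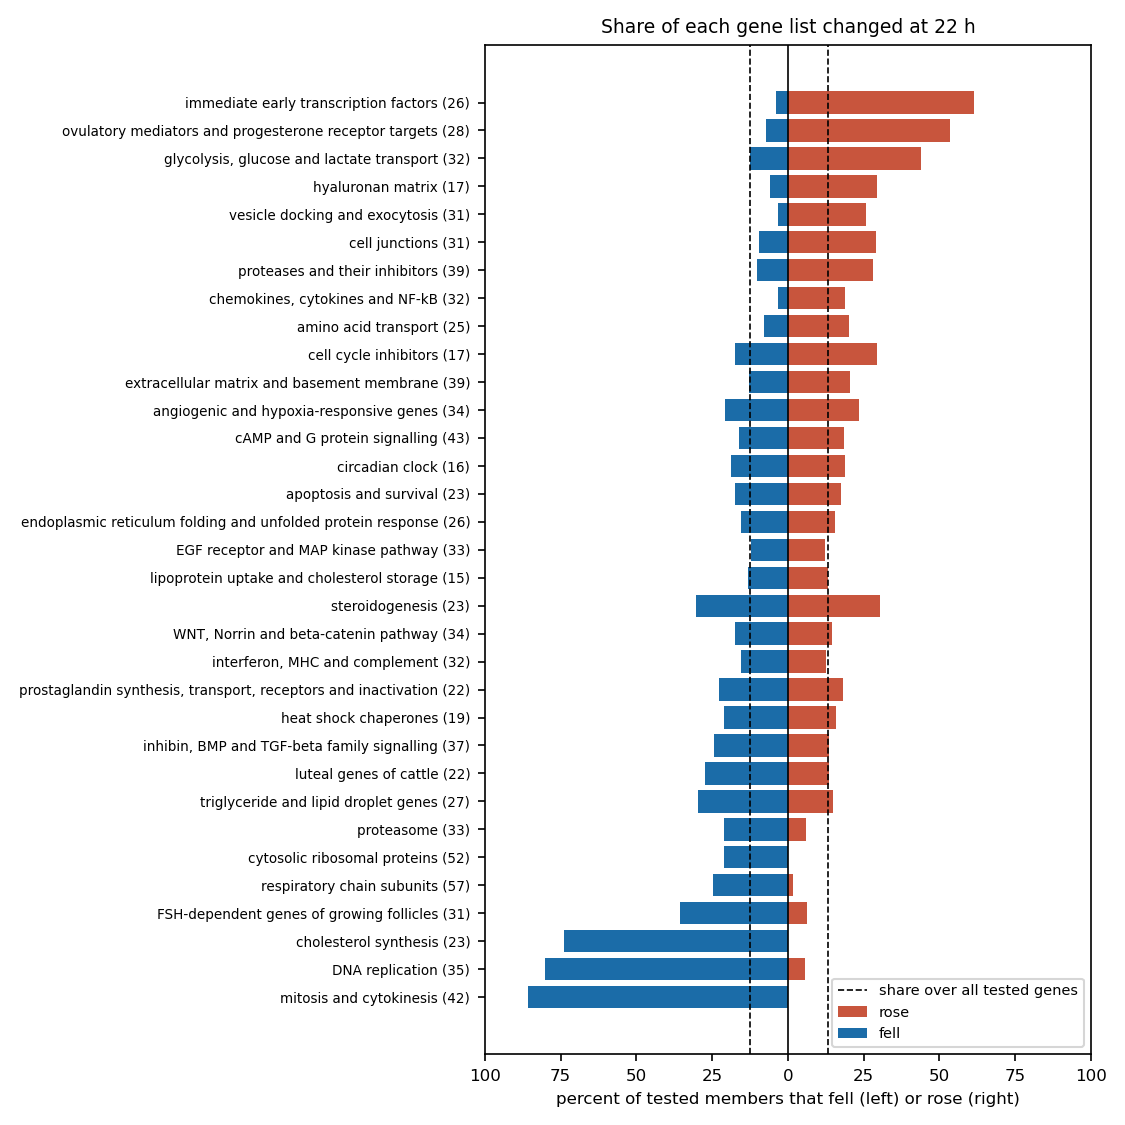
Share of the tested members of each of 33 lists of genes that fell (left) or rose (right) at 22 h, with the number tested in brackets; dashed lines are the shares over all 14168 genes, 13.1% up and 12.4% down. Cholesterol synthesis, DNA replication and mitosis reach furthest to the left, and immediate early factors and ovulatory mediators furthest to the right. The lists were chosen with earlier results of these data known, so the distance to the dashed lines is no independent test.

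Immediate early transcription factors, which answer hormonal signals within minutes to hours, were still above the pre-LH level: 16 of 26 rose and 1 fell, with a median of 0.94. EGR1 stood at 3.24, 2.64, 2.29 and 2.54 (2.68 ± 0.16), ATF3 at 2.69, 2.53, 2.29 and 2.18 (2.42 ± 0.045), FOS at 2.5, 2.35, 2.23 and 2.58 (2.41 ± 0.11) and NR4A1 at 2.15, 1.94, 2.32 and 1.79 (2.05 ± 0.21). Every array was above 1.7 for each of these factors. The brighter of the 2 FOS probes passed and the other, at 0.025, did not. JUNB rose by 1.08 ± 0.14. The member that fell was MYC, a driver of growth, at -1.38, -0.84, -1.04 and -0.30 (-0.89 ± 0.17), and lost its call without replicate 3 of 22 h.

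In the signalling lists the shares were nearer to those of all genes. Of 43 genes of cAMP and G protein signalling, 8 rose and 7 fell; beside RGS2, AKAP13, an anchor of protein kinase A, rose by 1.57 ± 0.13 and ADCY6, an adenylyl cyclase, by 1.03 ± 0.12, and GRK5, a kinase that shuts off receptors, fell (-0.63 ± 0.048). The number that fell was 4 without replicate 3 of 22 h. Of 33 genes of the EGF receptor and MAP kinase pathway, 4 rose and 4 fell. TRIB1 stood at 2.27, 2.52, 2.06 and 1.48 (2.08 ± 0.16), opposite in sign to its relative TRIB2; 2 of its 3 probes rose, the other was at 0.028, and the median over them was 0.883. SPRY2, which restrains growth factor signals, stood at 1.26, 1.29, 1.28 and 1.44 (1.32 ± 0.057), and DUSP1, a phosphatase of MAP kinases, at 1.05, 0.94, 1.18 and 1.20 (1.09 ± 0.068). Among 34 genes of the WNT and Norrin pathway, 5 rose and 6 fell. NDP, the Norrin ligand, stood at 4.27, 3.93, 3.52 and 1.64 (3.34 ± 0.43), less on replicate 4 than elsewhere, WNT2 rose by 1.37 ± 0.13 and SFRP1, which binds WNT proteins, fell (-1.06 ± 0.18). Without replicate 3 of 22 h, 3 of the 34 rose and 3 fell.

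Receptors and enzymes of steroid synthesis split evenly: of 23 genes, 7 rose and 7 fell. The receptor of LH itself, LHCGR, fell on every array, at -1.36, -1.28, -1.08 and -0.73 (-1.11 ± 0.073, adjusted p = 9.25e-05), on both of its probes. STAR, which moves cholesterol into mitochondria, stood at -1.14, -0.72, -0.67 and -0.80 (-0.83 ± 0.099, adjusted p = 0.00126), and its 3 probes all fell, with means of -0.75 to -0.97. CYP11A1, which makes pregnenolone there, stood at -1.26, -2.17, -1.26 and -1.26 (-1.49 ± 0.20), with replicate 2 apart from the other 3 arrays. HSD3B1, which makes progesterone, stood at 0.69, -0.30, 1.13 and 1.15 and did not pass (0.67 ± 0.19, adjusted p = 0.0536); replicate 2 had the opposite sign. HSD3B1 passed in 7 of 19 alternative settings, among them the replicate block and the fit without replicate 2 of 22 h, where its change was 0.951.

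The enzymes of androgen and estrogen synthesis fell. CYP17A1, the androgen-forming enzyme of theca cells, stood at -2.30, -2.31, -2.31 and -2.14 (-2.26 ± 0.066), with replicate 4 apart from the other 3. Of the 11 theca markers 7 fell in this comparison, as given below, and their part in the fall of CYP17A1 was not tested. HSD17B1, which makes estradiol from estrone, stood at -1.18, -1.71, -2.05 and -1.47 (-1.60 ± 0.16). Among members that rose was NR5A2, a nuclear receptor that controls steroid genes, at 1.41, 1.77, 1.30 and 1.04 (1.38 ± 0.12). Its 3 probes all rose, with means of 0.30 to 1.38, and the median over them was 0.646. The counts were 2 and 6 of 23 without replicate 3 of 22 h. OXT, the oxytocin of luteal cells, was at 0.22 (adjusted p = 0.146).

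**Figure D3:**
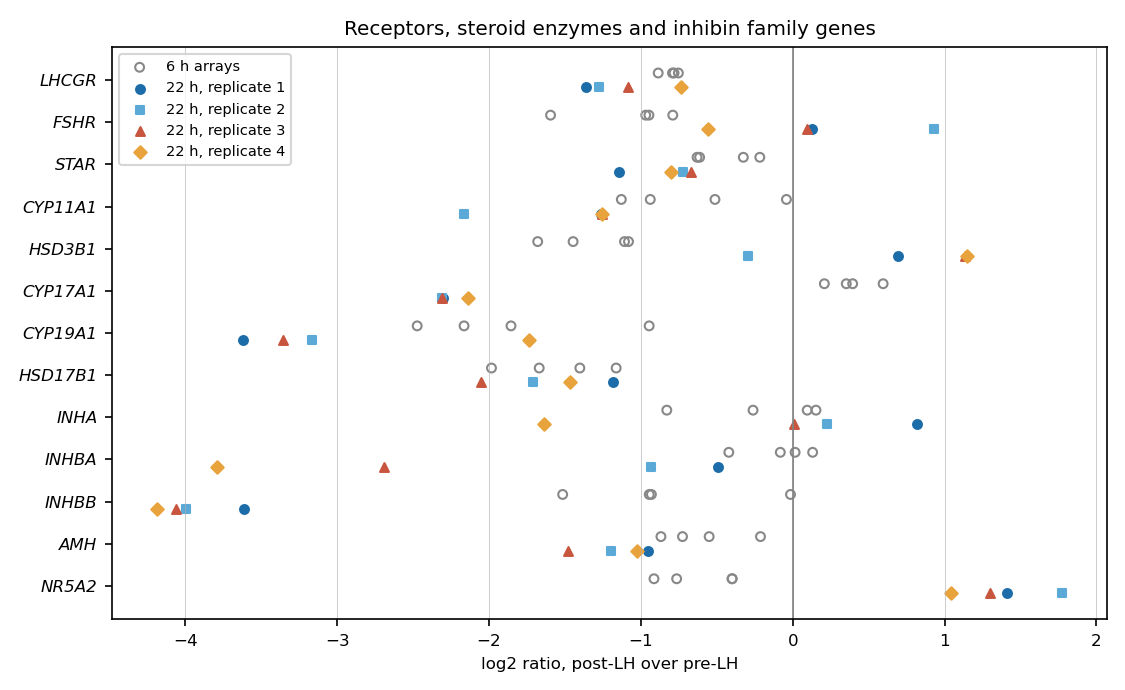
Receptors, steroid enzymes, inhibin and AMH genes; each row shows the 4 arrays of 22 h as filled symbols and the 4 arrays of 6 h as open circles, and the x axis is the log2 ratio of post-LH over pre-LH. All 4 filled symbols of CYP17A1, CYP19A1 and INHBB lie below -1.7, while those of FSHR and INHA lie on both sides of 0.

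Of 31 FSH-dependent genes of growing follicles, 11 fell and 2 rose. FSHR, the FSH receptor, stood at 0.12, 0.93, 0.096 and -0.56 and did not pass (0.15 ± 0.17, adjusted p = 0.658). INHA, the shared alpha subunit of inhibins, stood at 0.82, 0.23, 0.0060 and -1.64 and did not pass either (-0.15 ± 0.26, adjusted p = 0.787); 2 of 4 arrays were saturated in each channel. INHBA, the beta A subunit, stood at -0.49, -0.93, -2.69 and -3.79 (-1.98 ± 0.33), split by dye orientation. Its pre-LH spots were saturated on 3 of 4 arrays, so the size of this fall is not known. AMH, the anti-Müllerian hormone of growing follicles, stood at -0.96, -1.20, -1.48 and -1.02 (-1.16 ± 0.12) and GJA1, the main gap junction protein between granulosa cells, at -1.81, -1.33, -1.30 and -0.74 (-1.30 ± 0.13). The members that rose were NR5A2 and SLC39A8, a zinc and manganese importer, at 1.84, 2.65, 2.06 and 2.30 (2.21 ± 0.15).

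Further members of the inhibin, BMP and TGF-beta family were mixed, with 5 of 37 higher and 9 lower. The share that rose (13.5%) was near that of all genes (13.1%), and 24.3% fell, against 12.4%. FSTL3, a relative of follistatin that binds activin, stood at 1.98, 1.20, 1.18 and 1.49 (1.46 ± 0.13), and TGFB2, a ligand, at 1.33, 2.07, 1.42 and 1.21 (1.51 ± 0.14). INHBB had the largest fall among unsaturated members. The number that rose was 3 without replicate 3 of 22 h.

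Most genes of cholesterol synthesis fell. Of 23 tested genes 17 fell and 0 rose (0 at an unadjusted p under 0.05 in limma, too), with a median of -0.88. HMGCS1, the synthase at the start of the pathway, stood at -2.38, -2.40, -1.92 and -1.72 (-2.10 ± 0.090, adjusted p = 1.59e-05). Of its 4 probes, at means from -2.10 to -0.013, 3 fell, and its weakest value in an alternative setting was -1.43. In the isoprenoid part, IDI1 stood at -1.78, -1.80, -1.31 and -1.24 (-1.53 ± 0.044) and FDPS at -1.40, -1.88, -1.32 and -1.66 (-1.57 ± 0.12). SQLE, the epoxidase that commits squalene to sterols, stood at -2.39, -1.67, -1.64 and -1.72 (-1.86 ± 0.16), with replicate 1 apart. In the sterol part, CYP51A1 fell on all 3 of its probes, NSDHL stood at -1.88, -1.98, -1.86 and -1.46 (-1.79 ± 0.079), 1 of its 2 probes passing, and DHCR7, the last enzyme of 1 branch, at -1.67, -1.94, -1.49 and -1.09 (-1.55 ± 0.14).

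The regulators of the pathway were lower too. SREBF2, the transcription factor of the sterol response, stood at -0.68, -0.77, -0.91 and -0.85 (-0.80 ± 0.047) and INSIG1, which holds it back, at -1.54, -1.46, -1.63 and -1.87 (-1.62 ± 0.063). The 6 members that did not pass ranged from -0.33 (SCAP, the escort of that factor) to -0.0096 (LSS, lanosterol synthase). At 6 h, 14 of the same 23 genes had risen and 0 had fallen (26% of all genes changed at 6 h in either direction), and for 18 of 23 the change at 22 h was lower than that at 6 h by the test of the difference, against 8.5% of all genes. Both times share the pre-LH group. The counts that fell ranged from 16 to 17 when each array was left out in turn.

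**Figure D4:**
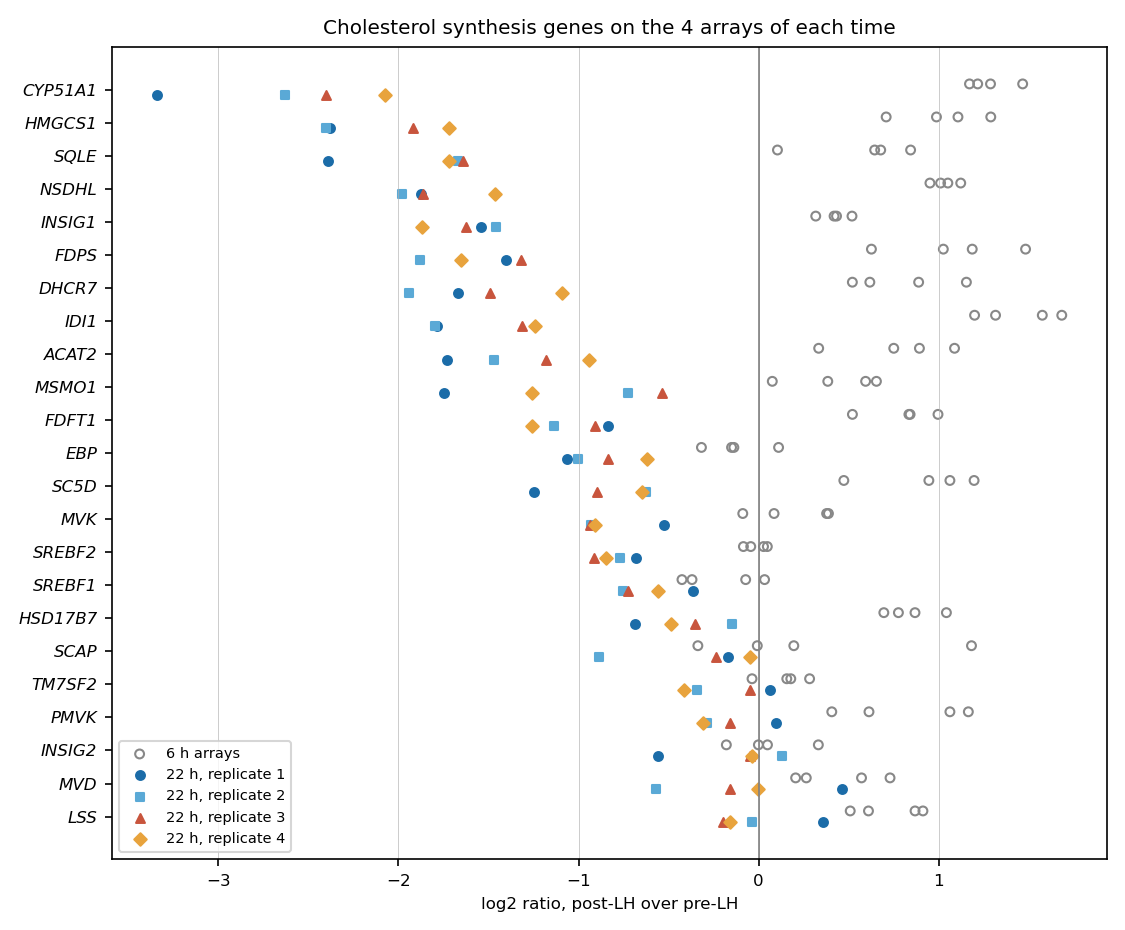
The 23 genes of cholesterol synthesis; filled symbols are the 4 arrays of 22 h, open circles the 4 arrays of 6 h, and the x axis is the log2 ratio of post-LH over pre-LH. From CYP51A1 down to SCAP all 22 h symbols lie below 0, and most open circles lie above it.

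Of 15 genes of lipoprotein uptake and cholesterol storage, 2 rose and 2 fell (13.3% each), near the shares of all genes (13.1% and 12.4%). SCARB1, the receptor for cholesterol from HDL, stood at 0.85, 0.38, 0.91 and 0.80 (0.74 ± 0.13, adjusted p = 0.00749) and SOAT1, which stores cholesterol as ester, at 0.24, 0.94, 0.52 and 0.24 (0.48 ± 0.11). LRP8 fell as above, and APOA1, the main protein of HDL, fell (-0.98 ± 0.21) on 1 of 2 probes. Leaving out replicate 2 or 3 of 22 h ended the calls of SOAT1 and APOA1, and leaving out replicate 4 that of APOA1. In the 27 triglyceride and lipid droplet genes, 4 rose (14.8%) and 8 fell (29.6%). PLIN2, a coat protein of lipid droplets, rose on every array by nearly the same amount, 2.38, 2.40, 2.37 and 2.23 (2.35 ± 0.043), while PLIN5, a coat protein of oxidative tissues, stood at -2.14, -2.05, -2.39 and -1.98 (-2.14 ± 0.087). DGAT2, the last step of triglyceride synthesis, stood at -1.43, -1.42, -1.64 and -1.45 (-1.48 ± 0.053) with 1 of 2 probes passing, FASN, fatty acid synthase, at -1.28, -1.41, -1.10 and -1.53 (-1.33 ± 0.10).

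Genes of cell division were lower as a group. Of 42 genes of mitosis and cytokinesis 36 fell and 0 rose (0 also at an unadjusted p under 0.05 in limma), with a median of -1.21. UBE2C, a ubiquitin enzyme of mitotic exit, stood at -2.00, -2.00, -2.49 and -1.78 (-2.07 ± 0.13), CCNA2, cyclin A, at -2.36, -1.95, -2.42 and -1.01 (-1.94 ± 0.22) and CCNB1, cyclin B, at -2.28, -1.62, -2.29 and -1.17 (-1.84 ± 0.21). NUSAP1, a spindle protein, stood at -2.55, -1.79, -2.22 and -1.02 (-1.89 ± 0.22); 1 of 2 probes passed for it and for CCNA2. On replicate 4 these changes were smaller. The median over the 42 genes ran from -1.62 to -0.65 across the arrays, replicate 4 being nearest 0. MKI67, a general marker of dividing cells, stood at -0.068, -0.22, 0.11 and 0.33 and did not pass (0.040 ± 0.050, adjusted p = 0.683).

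Of 35 genes of DNA replication 28 fell and 2 rose, with a median of -0.66. RRM2, a subunit of ribonucleotide reductase, stood at -2.57, -2.18, -1.82 and -1.31 (-1.97 ± 0.13), TK1, a thymidine kinase, at -1.30, -1.28, -1.69 and -1.59 (-1.46 ± 0.044), DUT, which keeps uracil out of DNA, at -1.63, -1.5, -1.75 and -1.41 (-1.57 ± 0.085), and PCNA, the sliding clamp, at -2.10, -1.09, -1.83 and -0.72 (-1.43 ± 0.23). Of the 4 RRM2 probes, at means from -1.97 to 0.015, 3 fell. The members that rose were ORC6, of the origin recognition complex (1.09 ± 0.16), and MCM2, of the replicative helicase (0.31 ± 0.068). For both, only 1 of 3 probes rose, and MCM2 lost its call without replicate 1, 3 or 4 of 22 h. The arrays of ORC6 split by dye orientation, at 0.71, 0.51, 1.73 and 1.39, and it did not pass without a dye effect in the fit. Over the median of its probes ORC6 was at -0.050 (adjusted p = 0.715), and 1 further MCM2 probe was called lower. The counts that fell were at least 32 for mitosis and 21 for replication when each array was left out in turn, the lowest without replicate 3 of 22 h.

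**Figure D5:**
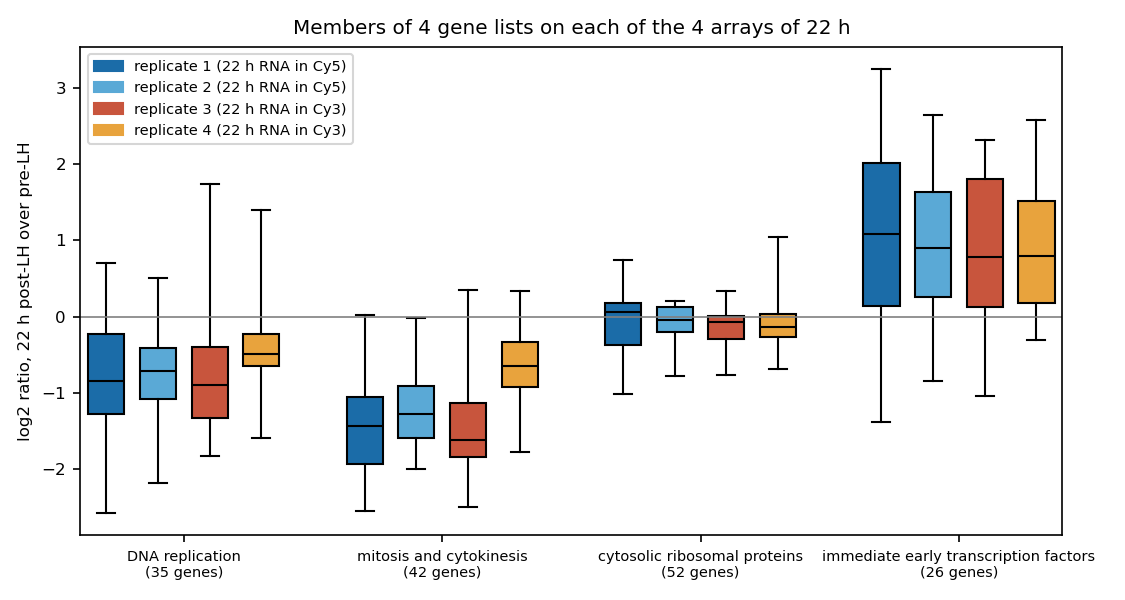
Members of 4 lists on each array of 22 h; boxes span the middle 50% of genes with the median as a line, and whiskers reach the lowest and highest gene. The boxes of mitosis lie below 0 on every array and nearest 0 on replicate 4, those of ribosomal proteins straddle 0, and those of immediate early factors lie above it.

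Of 17 cell cycle inhibitors 5 rose and 3 fell. CDKN2B, an inhibitor of the G1 kinases, stood at 2.27, 2.43, 1.93 and 2.39 (2.25 ± 0.087), BTG2 at 1.73, 1.63, 1.59 and 1.23 (1.54 ± 0.066) and CDKN1A, the p21 inhibitor, at 1.66, 1.14, 1.20 and 0.96 (1.24 ± 0.15). Both CDKN2B probes rose, with means of 0.87 and 2.25. CDKN2C (-0.77 ± 0.088) and GADD45G (-0.87 ± 0.069) fell. Among 23 genes of apoptosis and survival, 4 rose and 4 fell (17.4% each, against 13.1% and 12.4% of all genes). BCL2, which protects from cell death, stood at 1.92, 1.51, 1.38 and 1.38 (1.55 ± 0.077) and MCL1, another protector, at 0.81, 1.15, 0.96 and 0.80 (0.93 ± 0.072). DIABLO, which promotes death, rose by 0.72 ± 0.13, but did not pass without replicate 3 of 22 h. BAX, which opens mitochondria, fell (-0.60 ± 0.071), but its arrays stood at -1.17, -0.96, -0.25 and -0.022 and split by dye orientation, and it did not pass without a dye effect in the fit.

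Of 32 genes of glycolysis and of glucose and lactate transport 14 rose and 4 fell, with a median of 0.38. The number that rose was 8 without replicate 3 of 22 h. HK2, a hexokinase, stood at 2.34, 2.67, 1.68 and 0.93 (1.91 ± 0.19) and PDK3, a kinase that inhibits pyruvate dehydrogenase, at 1.75, 2.13, 1.89 and 1.75 (1.88 ± 0.090). The glucose transporters SLC2A1 (2.02, 1.58, 1.56 and 1.26, mean 1.60 ± 0.12) and SLC2A3 (1.58, 2.17, 1.49 and 0.78, mean 1.5 ± 0.14) rose, SLC2A1 on 1 of 2 probes. LDHA, lactate dehydrogenase, rose by 1.24 ± 0.12. Carriers of lactate and related acids fell, SLC16A1 at -1.71, -1.14, -1.58 and -0.72 (-1.28 ± 0.15) and SLC16A7 at -0.87 ± 0.091, the last above background on only 1 of 4 arrays at 22 h.

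Of 57 subunits of the respiratory chain, 14 fell and 1 rose, and none of the changes reached 2-fold. ATP5MC3 (-0.90 ± 0.097) and ATP5PF (-0.61 ± 0.070) of ATP synthase, UQCRQ of complex III (-0.89 ± 0.075) and COX5A of complex IV (-0.83 ± 0.080) had the largest falls. The arrays of ATP5PF split by dye orientation, at -1.08, -0.79, -0.30 and -0.28. NDUFV2 of complex I rose by 0.23 ± 0.049, and lost its call without replicate 1, 2 or 3 of 22 h. The list median was -0.056, and 9 fell without replicate 3 of 22 h. Cytosolic ribosomal proteins fell in 11 of 52 cases and rose in 0 (2 at an unadjusted p under 0.05 in limma), with a median of -0.030; RPS26 had the largest fall (-0.78 ± 0.13), and 5 fell without replicate 3 of 22 h. Of 33 proteasome subunits 7 fell and 2 rose, none by 2-fold, and without replicate 3 of 22 h 3 fell and 0 rose. The largest proteasome fall was that of PSMA4, of the core particle (-0.34 ± 0.060).

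Genes of protein folding were mixed. Of 26 genes of the endoplasmic reticulum and the unfolded protein response, 4 rose and 4 fell (15.4% each, against 13.1% and 12.4% of all genes). HSPA5, the main chaperone there, stood at -1.83, -0.86, -0.59 and -0.61 (-0.97 ± 0.21) and lost its call without replicate 1 or without replicate 3 of 22 h. DNAJB11, its co-chaperone, stood at -1.20, -0.73, -0.78 and -0.60 (-0.83 ± 0.092), and CREB3L2, a membrane-bound transcription factor, at 1.76, 1.30, 1.27 and 0.87 (1.30 ± 0.088). Among 19 heat shock chaperones 3 rose (15.8%) and 4 fell (21.1%). HSPB1, a small heat shock protein, stood at 1.95, 1.52, 1.25 and 0.82 (1.38 ± 0.10) and BAG3 at 0.63, 0.59, 0.57 and 0.65 (0.61 ± 0.066), while HSPA4 (-1.40 ± 0.15) and HSPH1 (-0.96 ± 0.18), which recharge HSP70, fell. Without replicate 3 of 22 h, 1 of the 26 genes rose, 2 of the 19 fell and HSPH1 did not pass.

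Of 39 genes of extracellular matrix and basement membrane, 8 rose (20.5%, against 13.1% of all genes) and 5 fell (12.8%, near the 12.4% of all genes). TNC, tenascin C, stood at 2.78, 2.52, 2.47 and 1.98 (2.44 ± 0.10), and ITGB5, an integrin subunit, at 1.66, 0.64, 1.43 and 1.33 (1.27 ± 0.19). FBLN5, of elastic fibres, stood at -2.29, -2.26, -1.73 and -1.25 (-1.88 ± 0.14) and NID1, which links laminin to collagen in basement membranes, at -2.13, -1.54, -1.28 and -0.40 (-1.34 ± 0.21). Among 31 genes of cell junctions, 9 rose and 3 fell. CLDN11 stood at 3.41, 3.54, 2.70 and 2.00 (2.91 ± 0.23), CLDN1 at 1.66, 2.26, 1.82 and 1.78 (1.88 ± 0.11) and CDH2, N-cadherin, at 3.18, 3.29, 2.79 and 1.94 (2.80 ± 0.15). All 3 CDH2 probes rose, with means of 0.195 to 2.80. OCLN, occludin, fell with arrays at -1.62, -0.82, -0.83 and -0.32 (-0.90 ± 0.14). Without replicate 3 of 22 h, 5 of the 39 matrix genes rose and 3 fell, and 5 of the 31 junction genes rose; without replicate 4 of 22 h, 9 matrix genes fell.

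Of 32 chemokines, cytokines and NF-kB genes, 6 rose and 1, CXCL14, fell. IL18 stood at 2.76, 2.99, 2.59 and 3.11 (2.86 ± 0.17) and VCAM1, an adhesion protein for leukocytes, at 1.47, 2.48, 1.86 and 1.78 (1.90 ± 0.16). NFKBIA, which holds NF-kB in the cytoplasm, rose by 0.73 ± 0.11. Among 32 genes of interferon response, MHC and complement, 4 rose (12.5%) and 5 fell (15.6%), near the shares of all genes (13.1% and 12.4%). The complement proteases C1S (1.22, 1.71, 1.66 and 0.87, mean 1.37 ± 0.13) and C1R (0.67 ± 0.057) rose, and BOLA-DRA, of the class II antigen pathway, fell (-0.67 ± 0.14). BOLA-DRA lost its call without replicate 1, 2 or 3 of 22 h, and without replicate 3 of 22 h 1 of the 32 fell.

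The list of angiogenic and hypoxia-responsive genes had 34 members, of which 8 rose (23.5%, against 13.1% of all genes) and 7 fell (20.6%, against 12.4%). ANGPT1, a ligand that steadies vessels, stood at 1.76, 2.21, 1.99 and 0.34 (1.57 ± 0.33), low on replicate 4, and lost its call without replicate 1, 2 or 3 of 22 h. HIF1A, the hypoxia-inducible factor, stood at 0.49, 1.60, 0.83 and 1.44 (1.09 ± 0.21) on all 3 probes. EDNRA, an endothelin receptor, stood at -2.15, -1.16, -1.61 and -0.68 (-1.40 ± 0.23) and KDR, the VEGF receptor of endothelium, at -1.86, -1.11, -0.91 and -0.81 (-1.17 ± 0.16). Endothelial markers fell in the same comparison, as given below, and their part in the fall of KDR was not tested. Without replicate 1 of 22 h 5 of the 34 rose, and the number that fell ranged from 4 without replicate 2 or 3 of 22 h to 10 without replicate 4.

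Of 31 genes of vesicle docking and exocytosis 8 rose and 1 fell. SNAP25, of the fusion complex, stood at 1.70, 1.62, 1.90 and 1.29 (1.63 ± 0.14) and RAB27B, which docks secretory granules, at 2.34, 1.99, 1.46 and 0.66 (1.61 ± 0.18). Of 25 amino acid transporters 5 rose and 2 fell. SLC7A5 stood at 1.11, 1.20, 0.92 and 1.93 (1.29 ± 0.17) and its partner SLC3A2 at 1.12, 0.32, 0.31 and 0.44 (0.55 ± 0.12), while SLC1A3, a glutamate transporter, stood at -2.63, -2.44, -2.75 and -2.16 (-2.5 ± 0.096) and the glutamine carrier SLC1A5 at -0.96, -1.11, -0.79 and -0.37 (-0.81 ± 0.12). For SLC1A3, 2 of 3 probes fell, the other was at -0.017, and the median over them was -1.47. Without replicate 3 of 22 h, 1 of the 25 rose, and SLC3A2 lost its call without replicate 1, 3 or 4 of 22 h. Of 16 genes of the circadian clock 3 rose and 3 fell (18.8% each, against 13.1% and 12.4% of all genes). CSNK1E, a clock kinase, stood at 2.18, 0.96, 1.43 and 1.37 (1.49 ± 0.19) and NPAS2 at -0.49, -0.66, -0.59 and -0.92 (-0.66 ± 0.064). NR1D2 fell (-0.48 ± 0.11), but with arrays at 0.24, 0.15, -1.20 and -1.10, so its sign followed the dye orientation, and it did not pass without a dye effect in the fit or without replicate 1, 2 or 3 of 22 h. Without replicate 1 or 3 of 22 h 1 of the 16 clock genes fell.

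Of 22 genes known from the corpus luteum of cattle, 3 rose (13.6%, near the 13.1% of all genes) and 6 fell (27.3%, against 12.4%). NTS, the peptide neurotensin, stood at 3.29, 4.31, 2.81 and 1.90 (3.08 ± 0.22); the others that rose were TIMP1 and SCARB1. The members that fell included STAR, CYP11A1, LHCGR and TRIB2, with the values given above. The number that rose was 5 without replicate 1 of 6 h.

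Markers of granulosa cells were above background on at least 3 of 4 arrays in both groups, with 14 of 14 tested. Of these, 3 rose and 5 fell. MRO, maestro, stood at 4.02, 3.71, 3.55 and 3.0 (3.57 ± 0.17). FOXL2, the transcription factor that marks granulosa identity, was at -0.12 (adjusted p = 0.241). The summed normalised intensity of these markers was 82400 to 161000 at 22 h and 135000 to 153000 before LH, so the ranges overlapped. The sums include INHA and INHBA, whose saturated spots, given above, entered at their measured value. The overlap therefore does not show that the granulosa content was the same.

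Of 11 theca markers 7 fell and 2 rose, with a median of -0.96. COLEC11 and CYP17A1 had the largest falls. ANPEP, an aminopeptidase, stood at -1.22, -1.05, -1.84 and -1.55 (-1.42 ± 0.17). PTCH1, a target of hedgehog signals, rose by 1.54 ± 0.16 on 1 of 3 probes and was at 0.058 over the median of its probes. The summed intensity of the 11 was 54500 to 66300 at 22 h and 61500 to 79400 before LH, and none was below background in either group.

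Of 14 endothelial markers 5 fell and 0 rose (1 at an unadjusted p under 0.05 in limma). Beside KDR, EMCN (-0.49 ± 0.11), PECAM1 (-0.30 ± 0.067) and ENG (-0.30 ± 0.049) fell. Their summed intensity was 10900 to 23800 at 22 h and 15900 to 29300 before LH. The count that fell ranged from 3 without replicate 1 or 3 of 22 h to 8 without replicate 4, and neither EMCN nor PECAM1 passed without replicate 1 or 3. Of 16 markers of fibroblasts and smooth muscle, 2 rose and 1 fell. POSTN, periostin, stood at 3.08, 4.21, 3.57 and 2.48 (3.34 ± 0.24) and FBLN1, fibulin, at 1.37, 1.33, 0.86 and 1.05 (1.15 ± 0.051). RGS5, of pericytes, fell (-0.59 ± 0.12) but did not pass without replicate 3 of 22 h, and 6 of the 16 fell without replicate 4. Of 20 leukocyte markers LYZ fell (-0.50 ± 0.13) and CD3D rose (0.16 ± 0.040). Of 7 markers of surface epithelium, KRT8 rose (0.75 ± 0.17) and KRT19 (-1.01 ± 0.087) and KRT7 (-0.16 ± 0.042) fell. Of 11 markers of cumulus and oocyte, ZAR1L fell (-0.27 ± 0.045), and of 5 erythrocyte markers none changed (1 at an unadjusted p under 0.05 in limma). CD3D, LYZ and KRT7 each failed to pass in at least 5 of the 19 alternative settings, and KRT8 was at 0.489 without replicate 4 of 22 h and lost its call without replicate 1.

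The change at 22 h differed from that at 6 h for 2561 genes (18.1% of those tested), 1357 higher at 22 h (9.58%) and 1204 lower (8.5%). Among the 3621 genes that changed at 22 h, 1525 were also called for this difference. At both times 1420 genes were called in the same direction and 404 in opposite directions, of which 177 rose at 6 h and fell at 22 h. PTGS2 was at 0.35 at 6 h (adjusted p = 0.203), and its difference of 5.66 ± 0.23 was the largest of those named here (adjusted p = 3.18e-05). GFRA1 was lower than before LH at 6 h (-0.82) and much higher at 22 h, a difference of 5.45 ± 0.23. HS3ST5 (-0.016 at 6 h), GALNT13 (-0.042), SEMA3E (-0.018), PLA2G4A (-0.36), POSTN (-0.15) and TNC (0.016) had not passed at 6 h and rose at 22 h.

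In the other direction, GPAT3, an acyltransferase of triglyceride synthesis, was at 4.96 at 6 h and stood at 0.69, 0.89, 0.65 and 0.98 at 22 h (0.80 ± 0.084). PGR was at 3.38 at 6 h, and its difference was -3.82 ± 0.080 (adjusted p = 4.21e-06). NCALD, a calcium sensor, was at 2.94 at 6 h and -0.30 ± 0.059 at 22 h, where it did not pass without replicate 3. CYP51A1 (1.28 at 6 h), HMGCS1 (1.02), DGAT2 (1.52), GJA1 (0.73) and CYP17A1 (0.39) had risen at 6 h and fell at 22 h. LRP8 had fallen at 6 h (-1.10) and was lower still at 22 h (difference -4.01 ± 0.24). TRIB2 (-3.0 at 6 h, difference 0.029) and HPGD (-2.96, difference -0.18) did not pass the test of the difference (adjusted p = 0.89 and 0.847). NR5A2 had fallen at 6 h (-0.62) and rose at 22 h (difference 2.00 ± 0.18), and HSD3B1 (-1.33) and FSHR (-1.08) had fallen at 6 h, with differences of 2.00 ± 0.28 (adjusted p = 0.00405) and 1.22 ± 0.24 (adjusted p = 0.0173). Time and slide cannot be told apart in this comparison, and the count of 2561 became 1497 without replicate 3 of 22 h, 1696 without replicate 1 of 6 h and 1562 without replicate 2 of 6 h.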

How the data were processed

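RNA of granulosa cells from 22 h and 6 h after the LH surge and from before it was amplified, labelled with Cy3 and Cy5 and hybridised to 8 2-colour arrays, per the labels' protocols. The deposited scanner files give raw spot intensity and local background in each channel, per the file headers. A second deposited table holds the authors' log2 ratios, whose processing is not given in the sources used here; its scale, centring and direction were checked against the scanner values (r = 0.884 to 0.951 per array, medians from -0.016 to 0.00502), and it served as an alternative.

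Spot means were corrected with normexp (offset 50), fitted without spots the scanner had marked or that were darker than their background (a choice made after seeing the data), and normalised by loess within each array, with control spots at weight 0 (limma 3.58.1, R 4.3.3). Log2 ratios were turned to post-LH over pre-LH. limma fitted both times and a common dye effect on all 8 arrays, with Benjamini-Hochberg adjustment over 38589 probes. A probe was tested where it exceeded the 95th percentile of negative controls on a fraction of 0.5 or more of the arrays with RNA of any 1 group. Of 43794 probes 21790 carried 1 gene symbol of the platform annotation, 982 of them updated through RefSeq, and 22004 carried none. A gene's value is that of its brightest tested probe. The number of arrays limits the precision. The p-values rest on the residuals of all 8 arrays after the dye effect, not on the spread of the 4 arrays of 22 h alone. Nothing says whether replicates were separate animals, so it is not known whether the p-values cover the spread between cows.

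Genes named are the 12 largest rises and falls and the largest changes among genes with a group not above background. Further ones are up to 4 leading members of each list and up to 2 that went against it. The largest differences to 6 h and a set of known ovulatory and steroid genes complete them. Outside this rule, ADAMTS1, AREG, PTGES, JUNB, IDI1, FDPS, DHCR7, SREBF2, INSIG1, SCAP, LSS, LDHA and FOXL2 were chosen after their values were seen. The members and lists were chosen with earlier results of these data known. Over the tested probes, same-numbered arrays of 6 h and 22 h deviated together (r = 0.418, 0.613, 0.63 and 0.246 for replicates 1 to 4), but a number also fixes the dye orientation, and with the dye effect removed r was -0.055, 0.262, 0.25 and -0.265. On simulated data for the 22 h comparison over 38589 probes, 76.1%, 97% and 100% of 1.5-fold, 2-fold and 4-fold changes were recovered, with 15 false among 197 calls. Only 67, 67 and 66 probes were changed at these sizes, none at 6 h, with independent noise per probe and no weaker replicate. In the real data 25.6% of genes were called, so these rates hold for the simulated setting and were not tested for the real arrays.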

Additional observations from a re-analysis of the deposited data

Results flagged for a closer look

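Of the 181 genes named above, 46 had a higher and 62 a lower change at 22 h than at 6 h in limma's test of the difference (adjusted p under 0.05). Each value is the log2 change at 22 h minus that at 6 h, and both share the pre-LH group and differ in slide.

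In 46 genes the change was higher at 22 h. Differences of at least 2 were found for PTGS2 (5.66), GFRA1 (5.45), HS3ST5 (4.28), VNN2 (4.14), PLA2G4A (3.95), GALNT13 (3.87), SEMA3E (3.87), NUDT11 (3.83), POSTN (3.48), OLFML2B (2.9), NUDT10 (2.66), ANGPT1 (2.57), TNC (2.42), NTS (2.36), PDK3 (2.13), PTCH1 (2.08), HSD3B1 (2) and NR5A2 (2). Those from 1 to 2 were TGFB2 (1.97), RAB27B (1.87), ITGB5 (1.84), HSPB1 (1.79), A2M (1.69), SCN3A (1.61), CLDN11 (1.56), WNT2 (1.36), C1S (1.31), NT5E (1.25), FSHR (1.22), MRO (1.22), VCAM1 (1.22), BCL2 (1.19), CREB3L2 (1.19), TRIM55 (1.13), RGS2 (1.12) and CDH2 (1.04). Smaller ones were ADCY6 (0.953), ADAMTS9 (0.842), PTX3 (0.778), SLC2A3 (0.724), DIABLO (0.695), C1R (0.65), NPAS2 (0.523), PTGES (0.503), PLIN5 (0.487) and NDUFV2 (0.285).

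In 62 genes the change was lower at 22 h. Differences of -2 or below were found for GPAT3 (-4.16), LRP8 (-4.01), CYP51A1 (-3.9), PGR (-3.82), NCALD (-3.24), HMGCS1 (-3.13), INHBB (-3.11), DGAT2 (-3), IDI1 (-2.98), NSDHL (-2.83), SLC39A8 (-2.66), CYP17A1 (-2.65), FDPS (-2.64), SQLE (-2.42), DHCR7 (-2.34), AS3MT (-2.27), CXCL14 (-2.26), HSPA5 (-2.18), STC1 (-2.17), INSIG1 (-2.04) and GJA1 (-2.02). Those between -2 and -1 were SLC1A5 (-1.96), INHBA (-1.89, a size that is not known because its pre-LH spots were saturated on 3 of 4 arrays of 22 h), HSPH1 (-1.78), DNAJB11 (-1.67), GRK5 (-1.6), ATP4B (-1.58), SLC16A1 (-1.52), AREG (-1.46), CDKN2B (-1.4), SCARB1 (-1.39), KDR (-1.37), COLEC11 (-1.25), SLCO2A1 (-1.18), UBE2C (-1.15), ADAMTS1 (-1.13), UGDH (-1.1) and HK2 (-1.09). Smaller ones were FSTL3 (-0.918), RRM2 (-0.914), FASN (-0.894), EGR1 (-0.877), MCL1 (-0.853), GADD45G (-0.797), SREBF2 (-0.79), ATP5PF (-0.758), SLC1A3 (-0.752), LSS (-0.734), TIMP3 (-0.675), DUT (-0.657), SPRY2 (-0.642), ATP5MC3 (-0.617), ENG (-0.561), GCLC (-0.553), PSMA4 (-0.492), COX5A (-0.465), BTG2 (-0.446), UQCRQ (-0.44), VEGFA (-0.435), TK1 (-0.392), PECAM1 (-0.382) and PLIN2 (-0.369).

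For 9 of the 181 genes, 1 of the 4 arrays of 22 h stood far from the other 3, as judged by its gap to the next array relative to the whole range (Dixon's criterion). The log2 ratio of that array was above the others for SLC3A2 (1.12, next array 0.442), CYP17A1 (-2.14, next array -2.3) and CXCL14 (-3.34, next array -4.18). It was below them for PLIN2 (2.23, next array 2.37), EMCN (-0.781, next array -0.418), RGS5 (-1.06, next array -0.487), DGAT2 (-1.64, next array -1.45), CYP11A1 (-2.17, next array -1.26) and SQLE (-2.39, next array -1.72). Chance flags about 1 in 20 such groups.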

How the results depend on the processing

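With only the 4 arrays of 22 h in the fit, 1754 genes were called, 910 higher and 844 lower, of which 1722 were among the 3621. Leaving out each array in turn gave 2047 to 3625 called genes, 1058 to 1878 higher and 989 to 1747 lower, and 651 to 837 with at least a 2-fold change. The difference from 6 h was called for 1497 to 2671 genes. All of these lowest counts were found without replicate 3 of 22 h. Under the 9 other alternatives without a replicate block the number of called genes lay between 2880, without a dye effect, and 3789, with the background taken from the negative controls. Leaving marked and dark spots out of the normexp fit, as was done for the values reported, was decided after seeing the data; normexp fitted on all spots, added then as an alternative, gave 2904. With the replicate number as a block in place of the dye effect, with which it is confounded, 3813 genes were called, 3337 of them shared with the 3621 and in the same direction. Under this pairing 4 of the genes named by the rule were lost, among them CD3D, KRT7 and PSMD2, and HSD3B1 was gained. Of 189 genes named by the rule and called, 137 were called in the same direction under all 19 alternatives, 10 were lost only with the 4 arrays of 22 h, and ORC6 reversed, at -0.0496 with the median over its probes (adjusted p = 0.715). The median over probes also gave a PTGS2 change of 3.90, CYP19A1 of -0.91, HPGD of -1.62, HS3ST5 of 2.15, FOS of 1.22, HK2 of 0.816, NR5A2 of 0.646, TRIB1 of 0.883, SLC1A3 of -1.47, SLC2A1 of 0.804, DGAT2 of -0.785, NSDHL of -0.976, NUSAP1 of -0.97, CCNA2 of -1.20, EDNRA of -0.829, GPAT3 of 0.518 and SLCO2A1 of -0.463. The causes were not tested. Dim and saturated probes limit the comparison: for 20 called genes a group was not above background on any array of 22 h or was saturated on all 4.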
